A study of Mus musculus with 12 samples.

Results

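The genes described here encode the subunits of the hypoxia inducible factors (HIFs). They were taken as the entries of the deposited count table whose Ensembl identifier carries the symbol Hif1a, Epas1, Hif3a, Arnt or Arnt2, which gave 5 of the 37681 mouse genes in the table. The rule uses the symbols alone, and all 5 had enough reads to be tested. RNA came from a thin outer slice of kidney cortex of male mice on the C57BL/6 strain, 18 months old and without treatment. The TG+ group held 3 TRACK mice (genotype label TRACK/gamma-HIF1alphaM3), numbered 43-29, 43-49 and 43-75, and the TG- group held 3 littermates without the transgene, numbered 43-26, 43-50 and 43-76. TRACK is a mouse model of early clear cell kidney cancer, in which a mutated and constitutively active HIF1α protein is made in the proximal tubules, the segment that reclaims most of the filtered solutes. The transgene is thus restricted to 1 cell type of a mixed tissue, and the deposited table does not list it as a gene. Both kidneys of each mouse were sequenced, and the reads of the 2 kidneys were summed so that the mouse was the unit.

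A HIF is a dimer of an alpha and a beta subunit, both of the bHLH-PAS family of transcription factors. The alpha subunits HIF1α (gene Hif1a) and HIF2α (gene Epas1) are hydroxylated on prolines when oxygen is present, bound by the von Hippel-Lindau protein and degraded, so that their activity is set mostly at the protein and not at the mRNA. The third alpha gene, Hif3a, gives several splice forms, some of which lack a strong activation domain and can hold back the other alpha subunits. The beta subunits, ARNT (also called HIF1β) and ARNT2, are stable in oxygen and also pair with other bHLH-PAS proteins such as the aryl hydrocarbon receptor. In the healthy kidney HIF1α is known mainly from tubule cells under low oxygen, and HIF2α from endothelial and interstitial cells.

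HIF dimers bind DNA at a short core, ACGTG or GCGTG, within a hypoxia response element. The 250 bases before the RefSeq transcription start of Hif3a, the member that changed most, and of Hif1a, the endogenous counterpart of the transgene, are shown here for their matches to this core. They are from RefSeq on GRCm38.p6, run 5′ to 3′ on the strand of the gene, and capitals mark the letters ACGTG or GCGTG, searched on both strands. The Hif1a window lies inside the GENCODE M21 span of that gene, which starts at 73901375, before the RefSeq start used here.
Hif3a (chr7:17062428-17062677, minus strand): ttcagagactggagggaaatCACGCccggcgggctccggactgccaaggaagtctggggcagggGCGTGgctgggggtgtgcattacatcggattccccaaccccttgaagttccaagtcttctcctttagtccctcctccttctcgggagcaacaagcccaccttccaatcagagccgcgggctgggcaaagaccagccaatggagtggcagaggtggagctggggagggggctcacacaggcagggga
Hif1a (chr12:73907617-73907866, plus strand): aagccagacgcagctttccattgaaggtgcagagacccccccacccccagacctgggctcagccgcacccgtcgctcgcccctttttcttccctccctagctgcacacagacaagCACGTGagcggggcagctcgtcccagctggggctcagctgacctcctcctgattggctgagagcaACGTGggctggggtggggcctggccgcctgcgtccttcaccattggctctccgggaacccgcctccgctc

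The Hif3a window held 2 matches to GCGTG, 1 on each strand, and the Hif1a window held 3 matches to ACGTG. The first 2 matches in Hif1a overlap, because CACGTG reads the same on both strands. The window of Arnt held 1 match and that of Arnt2 held 0, and Epas1 is named only. Of 32851 mouse promoter windows of the same length, 16.6% held ACGTG, 28.2% held GCGTG and 38.6% held at least 1 of these, so a match is common and is given as a description of the letters.

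Across the series, between 48052131 and 53275152 reads per mouse were counted on genes in TG+ and between 50570271 and 60506785 in TG-, and 19399 genes were tested. At the threshold of the study (adjusted p below 0.01 and a fold change above 2 or below 0.5), 3.77% of the tested genes were higher and 0.211% were lower in TG+. At an adjusted p below 0.05 with any fold change, 15.4% were higher and 10.9% were lower. In 23.4% of the tested genes every TG+ mouse was above every TG- mouse, and in 20.8% every one was below. Against this background, 1 of the 5 HIF subunit genes was higher and 0 were lower at the threshold of the study. At an adjusted p below 0.05, 2 of the 5 were higher and 1 was lower. The 3 TG+ mice were all above the 3 TG- mice for 2 of the 5, and all below for 2 of the 5. Adjusted p-values come from the quasi-likelihood test of edgeR, adjusted by the Benjamini-Hochberg method over the 19399 genes. The smallest 2-sided p that an exact permutation test of 3 against 3 mice can give is 0.1.

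Hif3a was the HIF subunit gene that differed most between the genotypes. The 3 TG+ mice had 190, 183 and 192 reads on Hif3a (43-29, 43-49 and 43-75), and the 3 TG- mice had 26, 22 and 22 (43-26, 43-50 and 43-76). As CPM (counts scaled to a common library size with edgeR's TMM factors), these were 3.84, 3.23 and 3.82 in TG+ and 0.507, 0.385 and 0.45 in TG-. Every TG+ mouse lay far above every TG- mouse, and the same was seen in single kidneys, with 79 to 109 reads in TG+ and 10 to 14 reads in TG-. The mean level rose from 0.447 ± 0.0609 CPM (SD, n = 3) to 3.63 ± 0.35 CPM (SD, n = 3), an 8.09-fold increase with a 95% interval of 6.16 to 10.6. On the log2 scale the change was 3.02 with a standard error of 0.17 (adjusted p = 3.11e-05, edgeR). Among all tested genes, 0.809% had a log2 fold change at or above that of Hif3a, and it was number 141 by fold among the 732 genes that were higher at the threshold of the study. The gene (ENSMUSG00000004328) lies on chromosome 7 from 17031507 to 17062427 on the minus strand. Its reads were counted for the gene as a whole, so the splice forms of Hif3a were not told apart.

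Epas1, the gene of HIF2α, was the most abundant HIF subunit gene and rose by less than 2-fold in TG+ kidney cortex. Its levels were 241, 267 and 257 CPM in the TG+ mice and 213, 186 and 192 CPM in the TG- mice, in the same order of mice as above. The groups did not overlap, and neither did the single kidneys, which ranged from 240.4 to 269 CPM in TG+ and from 172 to 222 CPM in TG-. The means were 255 ± 13.2 CPM (SD, n = 3) in TG+ and 197 ± 14.0 CPM (SD, n = 3) in TG-. This is a 1.29-fold increase (95% interval 1.16 to 1.45), or 0.37 on the log2 scale with a standard error of 0.07 (adjusted p = 0.00742, edgeR). Epas1 (ENSMUSG00000024140) lies on chromosome 17 from 86753700 to 86833410 on the plus strand.

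Markers of the cells in which HIF2α is best known moved in the same direction as Epas1. Of 8 endothelial markers, 8 were higher in TG+ at an adjusted p below 0.05, with a median log2 fold change of 0.69 and 0 past the threshold of the study. Their summed level was 763 to 815 CPM in TG+ and 438 to 574 CPM in TG-, with Eng, a co-receptor for TGF-beta on endothelial cells, the most abundant at 161 and 118 CPM. Within each genotype the mice stood in the same order for Epas1 and for this sum, with 43-29 lowest and 43-49 highest in TG+, and 43-50 lowest and 43-26 highest in TG-. Divided by the summed endothelial level, Epas1 was 0.315, 0.327 and 0.331 in the TG+ mice and 0.371, 0.425 and 0.381 in the TG- mice. Relative to these markers, a comparison chosen after the values were seen, every TG+ mouse thus lay below every TG- mouse. Of 6 fibroblast and pericyte markers 4 were higher at an adjusted p below 0.05, with a median log2 fold change of 0.65 and a summed level of 205 to 278 CPM in TG+ and 136 to 159.5 CPM in TG-. No marker of either list was at 0 in any mouse, and the part of other cells in the Epas1 difference was not tested. In bulk tissue, more cells of a type and more RNA per cell cannot be told apart.

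Hif1a itself showed no change past the threshold. Its levels were 91.7, 109 and 86.3 CPM in the TG+ mice and 107, 103 and 103 CPM in the TG- mice. The groups overlapped, because the TG+ mouse 43-49 lay above and the other TG+ mice lay below all TG- mice. The log2 fold change was -0.12 with a standard error of 0.09 and a 95% interval of -0.32 to 0.08 (adjusted p = 0.343, edgeR), which leaves room for a fold of 0.8 to 1.06. Without mouse 43-49 the value was -0.23 (adjusted p = 0.0249, edgeR). With libraries scaled by size alone it was 0.00, where the median of all tested genes was 0.13, against 0.01 in the main fit. The spread between TG+ mice, an SD of 0.17 on the log2 CPM scale, was larger than the 0.03 between TG- mice.

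What was counted on Hif1a limits this value. Reads of the transgene may have been counted on Hif1a or may have been lost, which the sources used here do not say, so endogenous and transgene mRNA cannot be told apart in it. Hif1a (ENSMUSG00000021109, chromosome 12 from 73901375 to 73947530, plus strand) also shares 330 exonic bases with Gm15283, an antisense RNA gene on the opposite strand. It shares a further 148 exonic bases with the protein-coding gene Gm49321 on the same strand, for which no count was used here. Whether counting used the strand of a read is not given in the sources used here, so reads of the overlapping stretch are uncertain. Gm15283 stood at 14.4, 12.6 and 14.0 CPM in the TG+ mice and at 8.97, 8.42 and 9.25 CPM in the TG- mice. Every TG+ mouse was above every TG- mouse for it, with a log2 fold change of 0.62 and a standard error of 0.08 (adjusted p = 0.00164, edgeR). With the reads of both genes added, the log2 ratio of the mean CPM was -0.05, against -0.12 for Hif1a alone.

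Both beta subunit genes had lower mean CPM in TG+, by small amounts. Arnt2 stood at 70.3, 74.6 and 72.6 CPM in the TG+ mice and at 78.5, 83.9 and 90.0 CPM in the TG- mice. All TG+ mice lay below all TG- mice, and the level fell by 0.21 on the log2 scale with a standard error of 0.06 (fold 0.86, 95% interval 0.779 to 0.954, adjusted p = 0.041, edgeR). This call did not hold with libraries scaled by size alone (-0.09, adjusted p = 0.332, edgeR), where the groups overlapped. The median log2 fold change of all tested genes was 0.13 with that scaling, against 0.01 in the main fit. The call was also lost with only the second kidney of each mouse, and without each of 43-29, 43-49, 43-75, 43-50 and 43-76 (log2 fold change of -0.24 to -0.17). Arnt2 (ENSMUSG00000015709) lies on chromosome 7 from 84246278 to 84410176 on the minus strand and shares 214 exonic bases with the opposite-strand gene Gm30873.

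Arnt stood at 41.2, 41.3 and 39.7 CPM in the TG+ mice and at 44.9, 43.9 and 43.6 CPM in the TG- mice. The groups did not overlap on this scale, but they overlapped under scaling by library size alone. The log2 fold change was -0.11 with a standard error of 0.05 (fold 0.92, 95% interval 0.854 to 0.999, adjusted p = 0.124, edgeR), and it was 0.01 with the scaling by size alone. That scaling moved the median log2 fold change of all tested genes from 0.01 to 0.13, so relative to the median gene the sign of Arnt was kept. Arnt (ENSMUSG00000015522) lies on chromosome 3 from 95434388 to 95497240 on the plus strand.

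**Figure D1:**
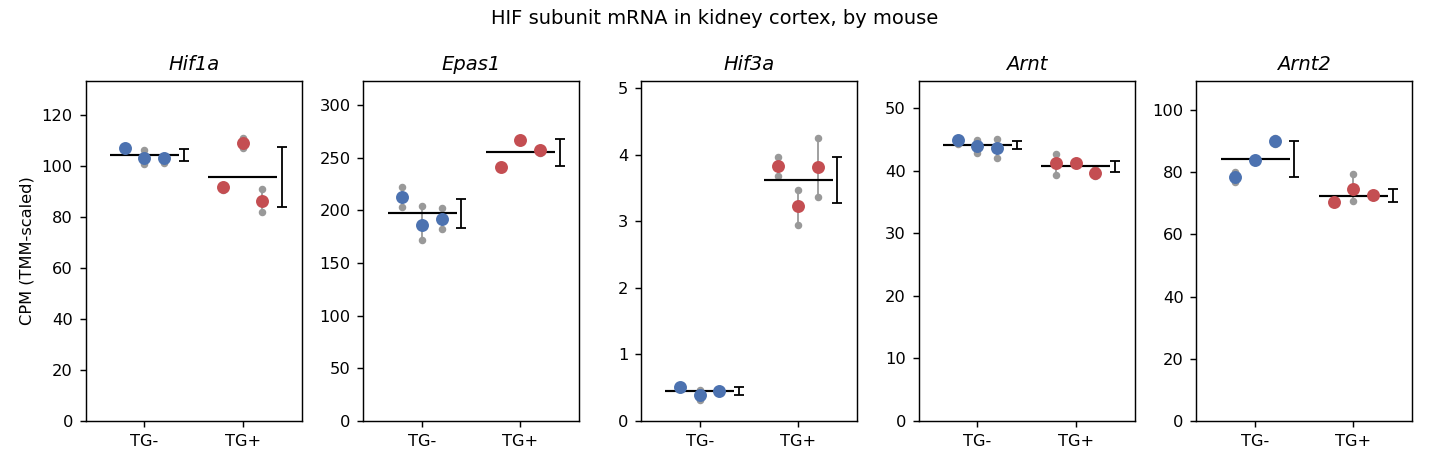
Levels of the 5 HIF subunit genes in CPM (TMM-scaled, vertical axis from 0 in each panel) in the TG- (blue) and TG+ (red) mice. Large points are mice, small grey points joined by a line are the 2 kidneys of a mouse, horizontal lines are means and bars are SD over 3 mice. TG+ and TG- mice do not overlap for Epas1 and Hif3a, where TG+ is higher, nor for Arnt and Arnt2, where TG+ is lower, and they overlap for Hif1a.

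The 2 kidneys of a mouse were close for the abundant members. The log2 ratio of the CPM of the 2 kidneys was at most 0.15 in size for Hif1a, 0.24 for Epas1, 0.12 for Arnt and 0.17 for Arnt2. For Hif3a, with few reads per library, it reached 0.58, which was still well under its log2 fold change of 3.02 between the genotypes. For Hif1a and Arnt the largest difference between kidneys exceeded the difference between genotypes, and for Arnt2 it was close to it.

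**Figure D2:**
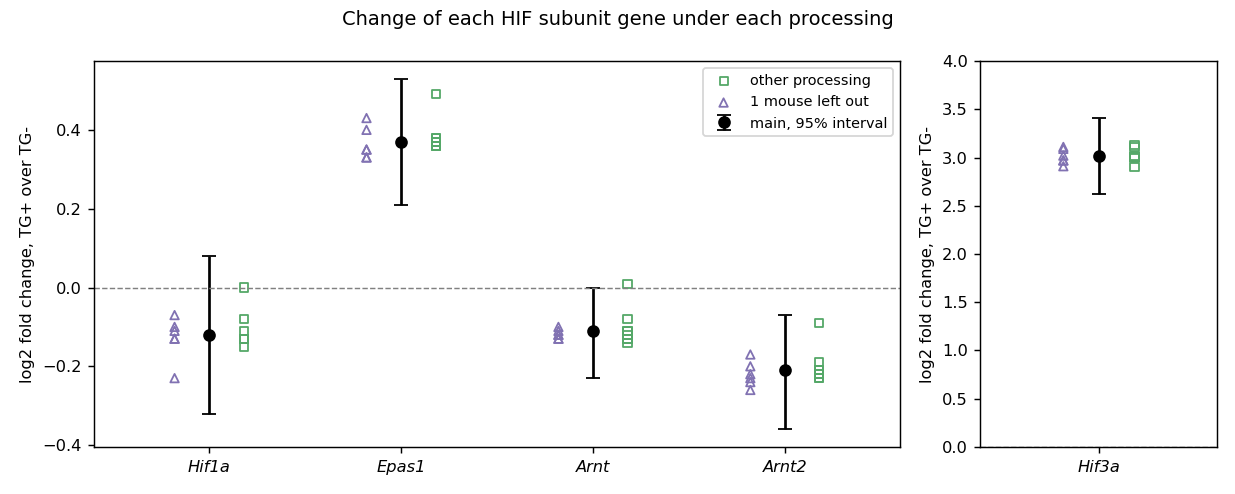
Log2 fold change (TG+ over TG-) of each HIF subunit gene, with Hif3a on an axis of its own. Black points are the edgeR values with 95% intervals, triangles are the fits with 1 mouse left out and squares the fits with another processing. Epas1 stays between 0.33 and 0.49 and Hif3a between 2.90 and 3.13, while Hif1a and Arnt reach 0.00 and 0.01.

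Compared per length, the HIF subunit genes stood in the same order in all 6 mice. The level per length is given as RPKM, the CPM divided by the merged exon length in kilobases. In TG+, Epas1 was at 45.6 ± 2.36 RPKM (SD, n = 3), Hif1a at 16.2 ± 2.01, Arnt2 at 9.43 ± 0.282, Arnt at 5.09 ± 0.114 and Hif3a at 0.541 ± 0.0522. In TG- the values were 35.2 ± 2.51 RPKM (SD, n = 3) for Epas1, 17.6 ± 0.369 for Hif1a, 10.9 ± 0.749 for Arnt2, 5.51 ± 0.0826 for Arnt and 0.0667 ± 0.00907 for Hif3a. No neighbours in this order overlapped over the mice of a genotype. Among 18204 tested genes with a known length, the top 6.31% reached the RPKM level of Epas1 in TG+ and the top 8.34% in TG-. Hif1a ranked in the top 18.3% in TG+ and 17.1% in TG-, Arnt2 in the top 29.3% and 25.8%, and Arnt in the top 43.6% and 41.1%. Hif3a was near the bottom of the tested genes in TG-, in the top 96.9%, and moved to the top 83.7% in TG+. The order depends on the length used in 1 place. With the lengths behind the RPKM values that the authors deposited, which for Hif1a equal the summed length of its 5 transcripts, Arnt2 stood above Hif1a in every mouse.

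In the alpha subunit mRNA as counted, Epas1 took a larger share in TG+ and Hif1a a smaller one. Hif1a itself showed no change past the threshold, and its count may hold or miss reads of the transgene. The shares and ratios below therefore do not measure the whole alpha subunit mRNA of the TG+ mice. Epas1 made up 72.7%, 71.6% and 75.1% of the summed RPKM of the 3 alpha genes in the TG+ mice, and 67.7%, 65.5% and 66.3% in the TG- mice. Hif1a made up almost all of the rest, 26.0 ± 1.91% (SD, n = 3) in TG+ and 33.4 ± 1.13% (SD, n = 3) in TG-. The shares depend on the gene length, and with the lengths behind the deposited RPKM values Hif1a made up 14.1% in TG+ and 18.9% in TG-. The share of Hif3a was 0.873 ± 0.133% in TG+ and 0.126 ± 0.0113% in TG- (SD, n = 3 each). All TG+ mice were separated from all TG- mice in each of these shares (exact permutation p = 0.1, 2-sided). The ratio of Epas1 to Hif1a, which does not depend on how libraries are scaled, was 2.77, 2.58 and 3.14 in the TG+ mice and 2.11, 1.91 and 1.97 in the TG- mice. It was thus higher in every TG+ mouse, by 0.50 on the log2 scale (exact permutation p = 0.1, 2-sided). With the deposited lengths the geometric mean of this ratio was 6.07 in TG+ and 4.29 in TG-, with the same difference on the log2 scale. The ratio of Hif3a to Hif1a rose from a geometric mean of 0.00376 to 0.0334. Hif3a mRNA therefore remained a small fraction of the alpha subunit mRNA in TG+ kidney cortex.

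The make-up of the beta subunit mRNA overlapped between the genotypes. The ratio of Arnt2 to Arnt per length was 1.78, 1.88 and 1.91 in the TG+ mice and 1.82, 1.99 and 2.15 in the TG- mice, and the mice of both groups overlapped (exact permutation p = 0.3, 2-sided). Set side by side as neighbouring animal numbers, the TG+ mouse had the lower ratio in 3 of 3 pairs (exact paired permutation p = 0.25, the smallest that 3 pairs allow). The size of this ratio rests on the length used, with geometric means of 7.66 in TG+ and 8.20 in TG- for the deposited lengths, and of 1.24 and 1.32 for the longest coding transcript. The summed alpha level relative to the summed beta level was 4.14, 4.48 and 4.25 in the TG+ mice and 3.56, 3.10 and 3.02 in the TG- mice. This ratio was higher in every TG+ mouse, by 0.41 on the log2 scale (exact permutation p = 0.1, 2-sided). Its alpha sum includes Hif1a, whose count may hold or miss reads of the transgene. Of the 4 ratios computed, 3 reached the smallest value that the exact permutation test can give, and these 3 share genes. Such separation was common, as every TG+ mouse was above every TG- mouse in 23.4% of the tested genes and below in 20.8%.

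**Figure D3:**
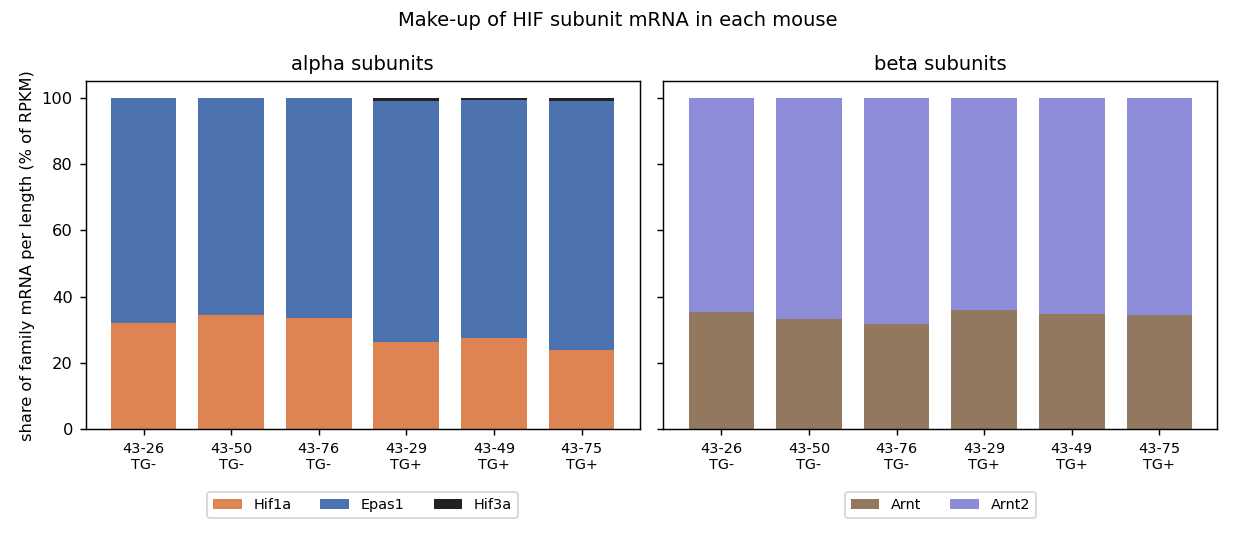
Share of each gene in the summed RPKM of the alpha subunit genes (left) and of the beta subunit genes (right), in percent, 1 bar per mouse. Epas1 takes 65.5% to 67.7% of the alpha sum in the TG- mice and 71.6% to 75.1% in the TG+ mice, and Hif3a is at most 0.968%.

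The genes that act on HIF subunits were examined next. Of 9 genes of oxygen sensing and HIF degradation, 1 was higher at the threshold of the study and 0 were lower, and at an adjusted p below 0.05 there were 2 higher and 2 lower. The gene past the threshold was Egln3, a prolyl hydroxylase of the alpha subunits, at 441 CPM in TG+ and 14.5 CPM in TG- (log2 fold change 4.93, standard error 0.16, adjusted p = 3.5e-06, edgeR). In TG+ it was the most abundant gene of the list, whereas in TG- Egln1, at 102 CPM, was the most abundant. The others, named here after their values were seen, were the prolyl hydroxylase Egln1 (0.91), which rose, and the prolyl hydroxylase Egln2 (-0.28) and the ubiquitin ligase subunit Rbx1 (-0.20), which fell on the log2 scale. The log2 fold change was 0.11 for Vhl (adjusted p = 0.241, edgeR), the substrate receptor of the ligase, and -0.05 for Hif1an (adjusted p = 0.484, edgeR), which hydroxylates an asparagine of the alpha subunits. Over the 9 genes the median log2 fold change stood at -0.02, beside 0.01 for all tested genes, and 0.10 with libraries scaled by size alone.

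Of 10 cofactors and chaperones of HIF, 1 was higher and 0 were lower at the threshold of the study, and 1 was higher and 1 lower at an adjusted p below 0.05. Cited1, which binds the p300 coactivator, had 52, 55 and 63 reads in the TG+ mice and 2, 2 and 4 reads in the TG- mice. The TG- mice were thus at or near the limit of detection and no fold change is given for it. It passed the filter on low counts only through the TG+ mice, so the count of 1 higher gene rests on a gene that had to differ in order to be tested. Ncoa2, a coactivator, was lower by a log2 fold change of -0.28 (adjusted p = 0.0259, edgeR). The most abundant gene, the chaperone Hsp90ab1, was at 1042 CPM in TG+ and 1126 CPM in TG- (adjusted p = 0.414, edgeR), and the coactivator genes Ep300 (0.06) and Crebbp (-0.03) had log2 fold changes near 0. The median of the list was -0.05 on the log2 scale, or 0.07 with libraries scaled by size alone.

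Other bHLH-PAS factors, some of which share ARNT as a partner, numbered 11, of which 8 were tested. At the threshold of the study 0 were higher and 0 lower, and 2 were higher at an adjusted p below 0.05. These were Ahr, the aryl hydrocarbon receptor (log2 fold change 0.38, adjusted p = 0.00664, edgeR), and Arntl2, a circadian partner protein (0.83, adjusted p = 0.0316, edgeR). Clock, the circadian factor, was the most abundant at 78.2 CPM in TG+ and 86.7 CPM in TG- (adjusted p = 0.0799, edgeR). The median log2 fold change was 0.16.

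Known target genes were split by the alpha subunit that they are thought to prefer. Of 12 genes that prefer HIF1α, 10 were higher at the threshold of the study and 12 at an adjusted p below 0.05, with 0 lower and a median log2 fold change of 2.14. The genes past the threshold were the glucose metabolism genes Hk2 (6.16), Eno1 (2.42), Pgk1 (1.56), Ldha (1.41) and Pdk1 (2.94), the lactate exporter Slc16a3 (6.52), Car9 (3.33), Ankrd37 (5.08), Bnip3 (1.71) and P4ha1 (1.87), with their log2 fold changes. The most abundant gene, the glycolytic enzyme Aldoa, rose by 0.86. The study picked some of these genes, such as Car9, Pdk1 and Slc16a3, partly for their rise in these same samples, so they are not independent evidence of direction. Of 5 genes thought to prefer HIF2α, 4 were tested and 1 was higher at either threshold, the growth factor gene Tgfa (1.10 on the log2 scale). Epo, the erythropoietin gene, was at 2.66 CPM in TG+ and 1.97 CPM in TG- (log2 fold change 0.43, adjusted p = 0.0593, edgeR). Ccnd1, the most abundant of these, was at 428 CPM in TG+ and 468 CPM in TG- (adjusted p = 0.447, edgeR), and the 4 genes had a median of 0.29 on the log2 scale.

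Hif1a mRNA and the level of these targets did not follow the same order of mice. The summed CPM of the 12 genes that prefer HIF1α was 3416 in 43-29, 2813 in 43-49 and 3236 in 43-75, against 1138 to 1210.5 in the TG- mice. Mouse 43-49 had the highest Hif1a level of the 6 mice and the lowest target sum of the TG+ mice. Hif3a was also lowest in 43-49 among the TG+ mice, at 3.23 CPM. This mouse stood apart in its marker levels too. Its summed level of the loop and distal nephron markers was 4784 CPM, against 3479.7 to 3923 CPM in the other mice, its podocyte sum was the highest at 533 CPM and its proximal tubule sum the lowest at 30970.1 CPM. Its kidneys had the highest chi-square per gene between them, 7.3, whereas the lowest correlation of log2 CPM between kidneys, 0.9959, was that of 43-75 (0.9962 in 43-49). The part of these differences in its Hif1a and target levels was not tested.

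Markers of other cell types were set beside the HIF subunit genes. Of 10 proximal tubule markers, 0 were higher, and 1 was lower at the threshold of the study, the organic anion transporter Slc22a6 (log2 fold change -1.09), with 5 lower at an adjusted p below 0.05. Their median log2 fold change was -0.32, and their summed level was 30970.1 to 34659 CPM in TG+ and 42114 to 44695 CPM in TG-, with Kap (16181 CPM in TG+ and 17074 CPM in TG-) the most abundant. Of 8 immune markers 6 were higher at an adjusted p below 0.05 and 3 at the threshold of the study, Cd3e (1.17), Cd79a (2.25) and Igkc (2.27), with a median of 0.91 on the log2 scale. The summed immune level, mostly Igkc, was 881 to 1330.5 CPM in TG+ and 285 to 323 CPM in TG-. Pdgfrb, the most abundant fibroblast and pericyte marker, was at 73.3 CPM in TG+ and 43.9 CPM in TG-. Of 5 markers of the loop of Henle and distal nephron 0 were higher and 0 lower at either threshold, with a median log2 fold change of 0.03 and Umod the most abundant (2019 and 1936 CPM). Of 4 podocyte markers 0 passed the threshold of the study and 1 was higher at an adjusted p below 0.05, Podxl (0.37), which was also the most abundant, with a list median of 0.27. No marker of any list was at 0 in a mouse, and the part of these cells in the values of Hif3a, Arnt2 and Arnt was not tested.

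**Figure D4:**
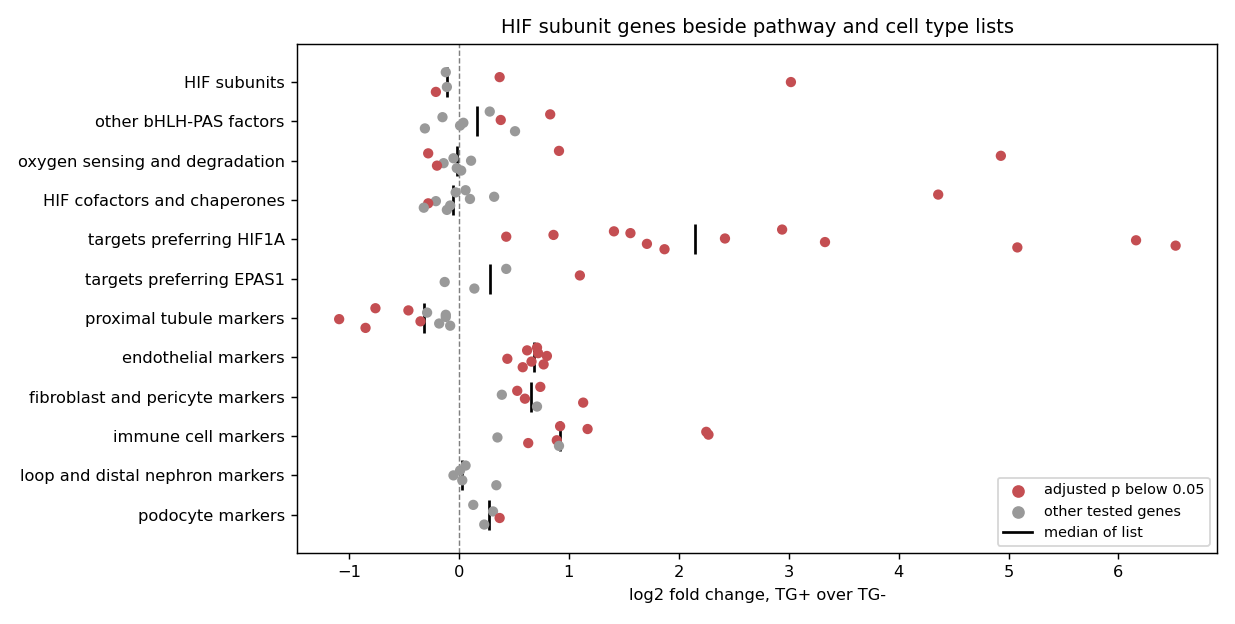
Log2 fold change (TG+ over TG-) of the tested genes of each list, 1 point per gene, red at an adjusted p below 0.05 and grey otherwise, with the median of the list as a black line. The 5 HIF subunit genes, in the top line, spread from -0.21 to 3.02, the 12 targets that prefer HIF1α from 0.43 to 6.52 and the 8 endothelial markers from 0.44 to 0.80.

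For each HIF subunit gene, the genes with the most similar levels over the 12 libraries were sought among 10182 genes with a mean of at least 10 CPM. The libraries share mice, genotypes and scaling, so these correlations of log2 CPM describe the pattern only. For Hif3a the nearest were Aire (r = 0.997, n = 12 libraries), Ndufa4l2 (0.996), a subunit-like protein of the respiratory chain, and Pafah1b3 (0.996), all higher in TG+. The log2 fold changes of Ndufa4l2 and Pafah1b3 were 5.98 and 1.32. Aire had 1964, 1551 and 1560 reads in the TG+ mice and 12, 5 and 9 reads in the TG- mice, so it reached the minimum mean level only through TG+ and its fold change is imprecise. For Epas1 they were the endothelial gene Eng (r = 0.986), Hspg2 (0.979), the basement membrane protein perlecan, and Slfn5 (0.979), all higher in TG+. For Hif1a they were the ubiquitin ligase gene Itch (r = 0.946), Ankrd52 (0.944) and Apc (0.931), a brake on Wnt signalling, with adjusted p-values of 0.447 to 0.575 (edgeR). For Arnt2 they were Ppara (r = 0.961), a regulator of fatty acid oxidation, Pdpr (0.958) and Tmem160 (0.955), with log2 fold changes of -0.55, -0.20 and -0.27. For Arnt they were Pdzd8 (r = 0.929), ENSMUSG00000086832 (0.918) and Marveld3 (0.906).

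Among the members themselves, Epas1 and Hif3a were the pair with the highest correlation of log2 CPM (r = 0.90, n = 12 libraries), and both were higher in TG+. Epas1 and Hif1a had r = -0.27, and Arnt and Arnt2 had r = 0.59. These values mix the difference between genotypes with the spread within them.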

How the data were processed

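RNA of 12 kidney cortex libraries (3 TG+ and 3 TG- mice, 2 kidneys each) was sequenced by the authors as 51-base single-end reads and analysed mainly with the Tuxedo tools. The submitters' processing notes name the build mm9, and the counting program, annotation and strand handling are not given in the sources used here. The authors deposited read counts per Ensembl gene and library without normalization, which were used for every test. The authors also deposited RPKM values, which were used only to work out the gene lengths behind them. The 12 columns of log2 RPKM, and 14 columns that hold the authors' own comparison (fold changes, p-values and related values), were not used.

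Counts were summed over the kidneys of a mouse, filtered with filterByExpr and scaled by TMM in R 4.3.3. The quasi-likelihood test of edgeR 4.0.16 (with limma 3.58.1) was run on 19399 genes, and p-values were adjusted by the Benjamini-Hochberg method. Standard errors and 95% intervals were derived from the test's F value and its degrees of freedom, and a pseudocount of 0.5 was used for log2 CPM in correlations. P-values measure the spread between mice, except in the alternative fit with each kidney as its own library. TMM factors were 0.9442 to 1.0651, the coefficient of biological variation between mice was 0.114, and single libraries held 21888584 to 33704850 reads. Between both kidneys of a mouse the chi-square per gene was 1.95 to 7.3, which is above counting error. Ratios and shares were compared by exact permutation of the genotype over all 20 possible assignments. Symbols, positions and merged exon lengths were taken from GENCODE M21 (GRCm38) by Ensembl identifier, which found 32661 of 37681 genes, whereas the processing notes name mm9. Promoters are from RefSeq (GRCm38.p6), matched by symbol for 4 of the 5 genes.

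The genes named are the 5 members, the members of 11 other lists (pathway genes and cell type markers) past the threshold of the study and the most abundant of each list, and the 3 genes most like each member. Further genes were named after their values were seen. The members and lists were chosen with earlier results of these data known, and 1 gene of the HIF2α target list is not reported here and was left out of its counts and median. The alternatives were DESeq2 (1.42.0), no filter, library size alone, upper-quartile factors, each kidney as its own library, 1 kidney only, a block of mice and each mouse left out. The transcript length, the addition of Gm15283 reads to Hif1a and the ratio of Epas1 to endothelial markers were added after seeing the data. The procedure was also run on simulated counts, but the outcome is not given here and is not used as support. Tables were handled with pandas 2.3.3 and numpy 2.4.6 in Python 3.11.15, permutations with scipy 1.17.1 and plots with matplotlib 3.10.9.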

Additional observations from a re-analysis of the deposited data

How the results depend on the processing

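Across 14 alternatives Epas1 (log2 fold change 0.33 to 0.49) and Hif3a (2.90 to 3.13) stayed higher at an adjusted p below 0.05 (edgeR or DESeq2). With libraries scaled by size alone Hif1a was at 0.00 and Arnt at 0.01, and Arnt2 at -0.09 was no longer called. The medians of the oxygen sensing list (0.10) and the cofactor list (0.07) turned positive. That scaling raised the median of all genes by 0.12. With only the second kidney Arnt2 was at -0.19 (adjusted p = 0.0963, edgeR), and with each kidney as its own library Arnt was called at -0.11 (adjusted p = 0.0183, edgeR). With 1 mouse left out in turn, Hif1a ranged from -0.23 to -0.07 and was called only without 43-49 (adjusted p = 0.0249, edgeR), and Arnt2 ranged from -0.26 to -0.17 and lost its call in 5 of the 6 fits, with fewer mice in each. The cause of the other changes was not tested. The submitters list the mice as 3 pairs of neighbouring numbers, and whether these are littermate pairs is not given in the sources used here. The deviations of such pairs correlated at 0.337, 0.296 and -0.024, which cannot decide it. The main fit used no pairing. With a replicate block for these pairs the log2 fold changes were -0.13 (Hif1a), 0.37 (Epas1, adjusted p = 0.0138), 3.02 (Hif3a), -0.11 (Arnt) and -0.21 (Arnt2, adjusted p = 0.0311, edgeR), and no call changed. Within these pairs, a comparison added after seeing the data, each of the 4 ratios between members moved one way in 3 of 3 pairs, with Arnt2 to Arnt lower in TG+ (log2 differences of -0.17 to -0.04). Hif3a rests on 22 to 26 reads per TG- mouse, which limits the precision of its fold change.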
